A study of Mus musculus with 24 samples.

Results

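The genes described are 9 members of the Ly6 and Ms4a surface antigen families, Ly6a, Ly6c1, Ly6c2, Ly6e, Ly6g5b, Ms4a4b, Ms4a4c, Ms4a6b and Ms4a6c. They were taken by symbol from a count table of 53465 genes, in which each symbol stood on 1 gene. The members were chosen with earlier results of these data known. Counts of members set beside shares of all genes therefore describe a chosen set. RNA-seq counts came from 24 libraries of natural killer (NK) cells, lymphocytes of innate immunity with cytotoxic granules that also make interferon gamma. The cells were sorted from B16F10 melanomas, a mouse melanoma line, grown under the flank skin of female wild-type B6 mice for 14 days. The 4 populations were CD27+CD69+, CD27+CD69-, CD11b+CD69+ and CD11b+CD69-, with 6 libraries each and 100 sorted cells per library. CD27, a receptor of the TNF receptor family, marks NK cells early in maturation, the integrin chain CD11b marks later ones, and CD69 is a lectin that appears soon after activation. No treatment or engineered allele is given for any group, and all groups carried the same tumour line. The labels write melanoma as the cell type, while the study's design text names NK populations, and the sort gates beyond the named antigens are not given. Whether the 6 libraries of a population are from different mice is not stated, and the p-values cover no more than the variation among these samples, which may be technical.

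Ly6 proteins are small, disulfide-rich proteins that a glycosylphosphatidylinositol (GPI) lipid holds on the outer face of the cell membrane. Several are induced by interferons, and antibodies to Ly6A (Sca-1) and Ly6C are used to sort haematopoietic cells and to follow lymphocyte activation and maturation. Ms4a genes encode proteins that cross the membrane several times, CD20 of B cells being the best known, and Ms4a4b is known from T and NK cells. RNA levels are given as CPM, counts scaled to library depth, with library sizes adjusted by the trimmed mean of M-values (TMM).

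The members lie in family clusters on GRCm38, by GENCODE M21. Ly6e (chr15:74955051-74959905, plus strand), Ly6a (chr15:74994877-74998031), Ly6c1 (chr15:75044018-75048830) and Ly6c2 (chr15:75108158-75111970, all 3 on the minus strand) are neighbours on chromosome 15. Ms4a4c (chr19:11404770-11427246), Ms4a4b (chr19:11443553-11467055), Ms4a6c (chr19:11469366-11482192) and Ms4a6b (chr19:11516512-11531256) share the plus strand of chromosome 19. Ly6g5b (chr17:35113948-35115428, minus strand) lies apart on chromosome 17. Near-identical copies limit what a read count can separate. Of the distinct 50-base words in their transcripts, Ly6c1 shared 32.8% and Ly6c2 14.5% with other genes, mostly with each other, and Ly6a shared 19.0%. Ms4a4c shared 8.19%, Ms4a6b 3.57% and Ms4a4b 2.40%, while Ly6e and Ly6g5b shared none. Ms4a6c is a special case, because 53.1% of its exon bases overlap BE692007 on the opposite strand, and the libraries keep no strand. How the counting split shared reads is not given, so values of Ly6c1, Ly6c2, Ly6a and Ms4a6c are less certain than those of Ly6e.

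The stretches before the transcription starts show how close the paralogs are whose RNA differed between populations. Each below has 150 bases, from 160 to 11 bases before the RefSeq start on GRCm38.p6, with the longest run shared by the pair in capitals. They are from chr15:75048848-75048997 for Ly6c1 and chr15:75111982-75112131 for Ly6c2, on the minus strand, and from chr19:11443398-11443547 for Ms4a4b and chr19:11407501-11407650 for Ms4a4c, on the plus strand.
Ly6c1: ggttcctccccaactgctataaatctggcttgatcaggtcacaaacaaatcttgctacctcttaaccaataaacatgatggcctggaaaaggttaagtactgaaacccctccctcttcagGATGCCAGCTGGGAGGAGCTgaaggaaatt
Ly6c2: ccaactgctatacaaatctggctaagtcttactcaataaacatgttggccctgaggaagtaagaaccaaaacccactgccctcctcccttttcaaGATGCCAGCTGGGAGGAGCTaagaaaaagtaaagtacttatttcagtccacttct
Ms4a4b: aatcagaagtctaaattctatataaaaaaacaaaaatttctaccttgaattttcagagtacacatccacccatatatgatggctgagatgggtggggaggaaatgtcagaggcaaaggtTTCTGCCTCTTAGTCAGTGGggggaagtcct
Ms4a4c: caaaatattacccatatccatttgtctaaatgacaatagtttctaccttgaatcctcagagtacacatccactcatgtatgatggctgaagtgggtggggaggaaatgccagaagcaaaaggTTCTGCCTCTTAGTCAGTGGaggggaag
Both pairs share a run of 20 bases. Over the 250 bases before the start, Ly6c1 and Ly6c2 were 72.7% identical in 234 aligned columns, Ms4a4b and Ms4a4c 72.4% in 261, and Ms4a6b and Ms4a6c 82.7% in 185, with a shared run of 48 bases. RefSeq windows were matched for 7 members, all but Ly6a and Ly6e. By GENCODE M21, the windows of Ms4a4c and Ms4a6b lie inside the gene, past its start. That of Ly6g5b lies upstream and apart from the gene, so RefSeq and GENCODE starts differ for these members. On either strand of these 250 bases, the ETS core GGAAGT matched in Ly6c2 and all 4 Ms4a members, in Ms4a4b at -19 and in Ms4a4c at -15, and it matched in 19.7% of the 32851 RefSeq windows of this length. TATAAA matched in Ly6c1 at -143 and in Ms4a4b at -140, against 12.4% of windows. The interferon-stimulated response element core, GAAA with any 2 bases between it and another GAAA, found in 2.98% of windows, matched in none of the 7, and neither did the STAT motif TTCNNNGAA (7.02% of windows), the T-box motif GGTGTGA (3.33%) or an NF-kB consensus site (0.14%). A match describes the letters only, and no match says only that they are not in these windows.

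Libraries held 1213914 to 2671533 counts (median 2213433), so a count of 0 allows up to 3 counts, or between 1.15 and 2.47 CPM. The sort markers followed the labels: Cd69 averaged 1173 CPM in CD27+CD69+, 735 in CD27+CD69-, 1112 in CD11b+CD69+ and 607 in CD11b+CD69- libraries, Cd27 342, 277, 141 and 87.9 CPM in the same order, and Itgam, which encodes CD11b, 4.92, 12.2, 48.6 and 89.7 CPM. All 10 NK markers listed had counts in every population. Their sum was 13071 to 16365 CPM in CD27+CD69+, 8102 to 14101 in CD27+CD69-, 21496 to 27584 in CD11b+CD69+ and 27418 to 32703 CPM in CD11b+CD69- libraries. Of the 10, 5 were lower in CD27+ than in CD11b+ cells with CD69 (0.911% of all genes) and all 10 without it (4.92% of all genes, edgeR). T cell markers summed to between 2155 and 3468 CPM in CD27+CD69+, 1052 and 2694 in CD27+CD69-, 1148 and 1508 in CD11b+CD69+ and 872 and 1222 in CD11b+CD69- libraries. Of them Cd3e averaged 139 and 85.8 CPM in CD27+CD69+ and CD27+CD69- and 1.45 and 0.0820 CPM in CD11b+CD69+ and CD11b+CD69- libraries, Cd4 was at 0 in CD27+CD69+, Cd8a in CD11b+CD69+, and Cd4 and Cd8b1 in CD11b+CD69- libraries. The CD27+CD69- libraries stood apart by fibroblast RNA. The 8 fibroblast markers summed to 3250, 11989, 8395, 4107, 258 and 7557 CPM in replicates 1 to 6 of that population, and replicate 5 was at 0 in all of them but Sparc. Elsewhere the sum was at most 232 CPM, in 1 CD27+CD69+ library, and all 8 were at 0 in every CD11b+CD69+ library. Replicate 6 of CD27+CD69- had the lowest total of all libraries and a melanoma marker sum of 5826 CPM. Macrophage markers stayed between 8.22 and 75.9 CPM in all libraries. In such bulk samples, fewer cells of a type and less RNA per cell cannot be told apart.

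**Figure D1:**
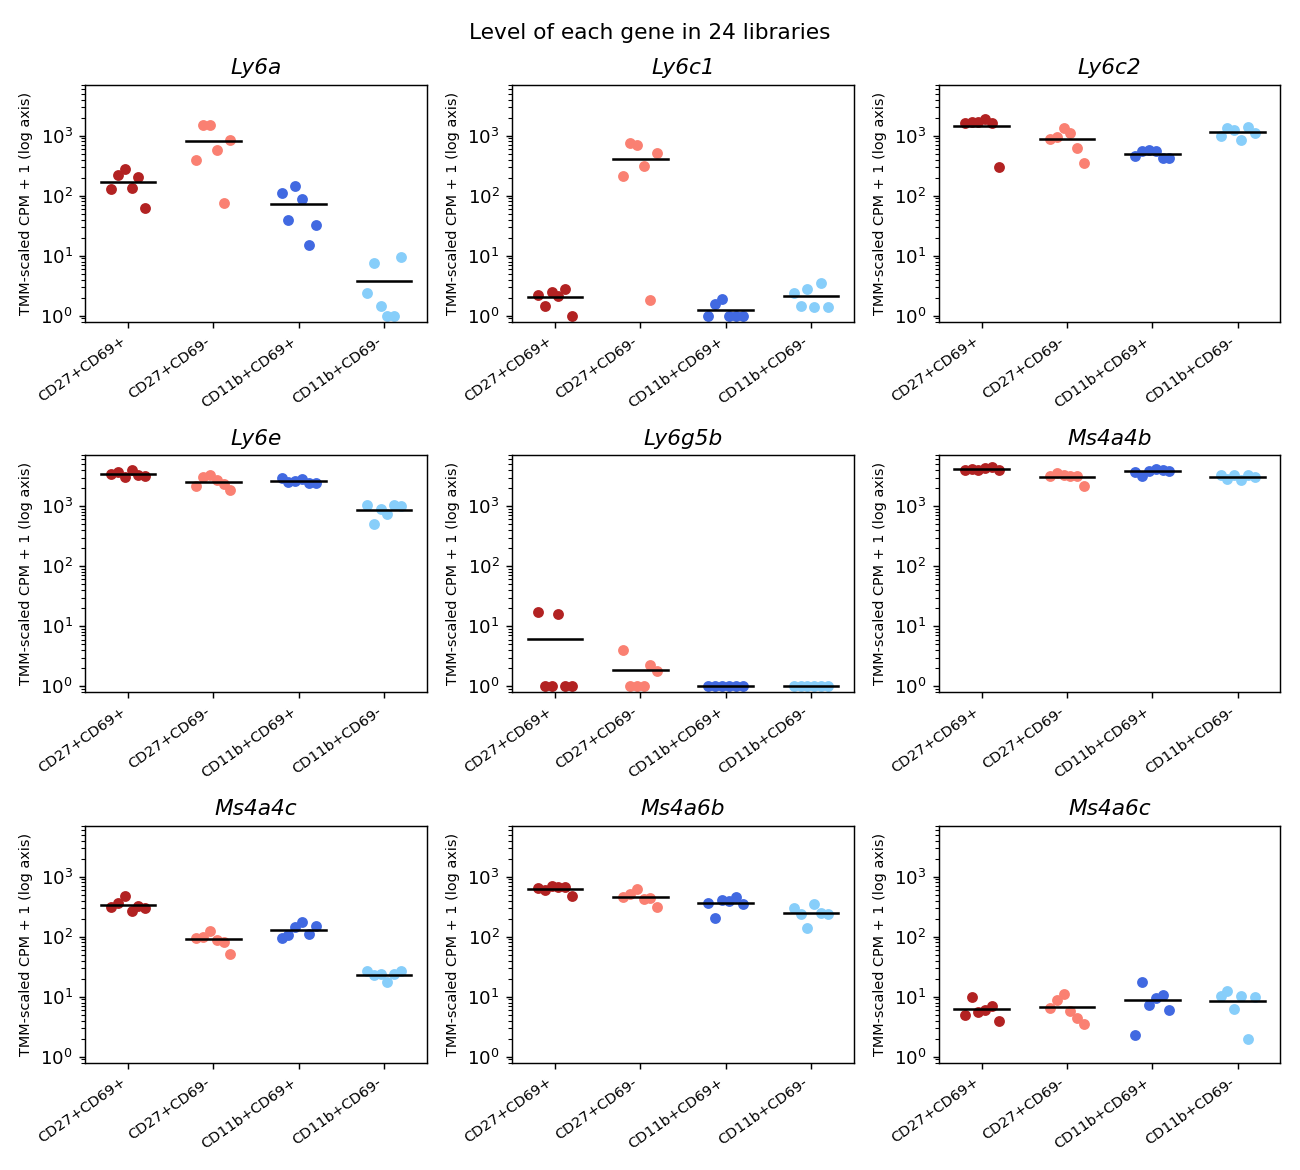
Library-scaled CPM plus 1 on a log axis for the 9 genes, one panel each, with 6 points per population for the replicates in numerical order and a bar at the mean. Ms4a4c averages 339 CPM in CD27+CD69+ and 22.4 CPM in CD11b+CD69- libraries, Ms4a4b is high throughout, and Ly6c1 stands out in 5 of the 6 CD27+CD69- libraries.

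Per kilobase of exon, Ly6e averaged 629 CPM over the 24 libraries, Ms4a4b 403, Ly6c2 365 and Ly6a 220. Ms4a6b followed at 95.0, Ms4a4c at 82.7 and Ly6c1 at 62.2 CPM per kilobase, and Ms4a6c (3.20) and Ly6g5b (1.28) were the lowest. A test needed about 10 counts in each library of a group the size of a population, and 7 of the 9 members passed, all but Ly6c1 and Ly6g5b. In a test of any difference among the 4 populations, 6 of these 7 passed an adjusted p of 0.05, against 14.1% of the 10536 genes tested, and Ms4a6c did not (edgeR quasi-likelihood, adjusted p = 0.903). The ratio of the highest to the lowest population mean was 289 for Ly6a, 15.1 for Ms4a4c, 3.95 for Ly6e, 2.95 for Ly6c2, 2.50 for Ms4a6b and 1.34 for Ms4a4b. CD27+CD69+ cells held the highest mean of Ly6c2, Ly6e, Ms4a4b, Ms4a4c and Ms4a6b. CD11b+CD69- cells held the lowest mean of Ly6a, Ly6e, Ms4a4b, Ms4a4c and Ms4a6b. Between populations next to each other in mean level, Ms4a4c differed in 2 of 3 steps and Ly6a and Ly6e only in the last, above CD11b+CD69-, while no step of Ly6c2, Ms4a4b, Ms4a6b or Ms4a6c passed.

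CD69+ CD11b+ cells had more Ms4a4c, Ly6e and Ly6a RNA and less Ly6c2 RNA than CD69- CD11b+ cells. Thus 4 of the 7 members tested passed, against 2.74% of all genes: 3 were higher, against 1.64%, and 1 was lower, against 1.1%. The libraries of CD69+ and CD69- cells did not overlap for the same 4 members, against 3.19% of genes, and Ms4a4c and Ly6e ranked 1 and 2 by p-value. The members' median log2 difference was 0.53, against 0.00 over all genes. In CD27+ cells, 2 of 7 passed between CD69+ and CD69- cells, Ms4a4c and Ms4a4b, both higher in CD69+ cells, against 1.85% of all genes (0.55% higher and 1.3% lower). These 2 were also the members without overlap, against 2.11% of genes, and Ms4a4c again ranked 1. The median of the members was 0.42 there, against -0.01 over all genes.

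CD27+CD69- cells had more Ly6a, Ms4a4c, Ly6e and Ms4a6b RNA than CD11b+CD69- cells, so that 4 of 7 passed, all higher, against 12.4% of all genes (7.46% higher and 4.92% lower). The libraries did not overlap for Ly6a, Ly6e and Ms4a4c, 3 of 7, against 6.62% of genes. In CD69+ cells, 3 of 7 passed, Ly6c2, Ms4a4c and Ms4a6b, all higher in CD27+ than in CD11b+ cells, against 1.9% of all genes (0.987% higher and 0.911% lower). The libraries did not overlap for Ly6e, Ms4a4c and Ms4a6b, 3 of 7, against 2.29% of genes. Across the diagonals, 5 of 7 were higher in CD27+CD69+ than in CD11b+CD69- cells, against 11% of all genes (6.39% higher and 4.61% lower), with Ms4a4c ranked 2 by p-value. Their libraries did not overlap either, against 7.27% of genes. Between CD11b+CD69+ and CD27+CD69- cells only Ly6a passed, lower in CD11b+CD69+ cells, against 6.19% of all genes (2.41% higher and 3.78% lower), and every member overlapped, where 4.24% of genes did not. The comparisons share populations, CD11b+CD69- standing in 3 of them, and are not independent of each other. T cell markers moved with CD27: 7 of 8 tested were higher in CD27+ than in CD11b+ cells, both in CD69+ and in CD69- cells, and their part in these results was not tested.

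**Figure D2:**
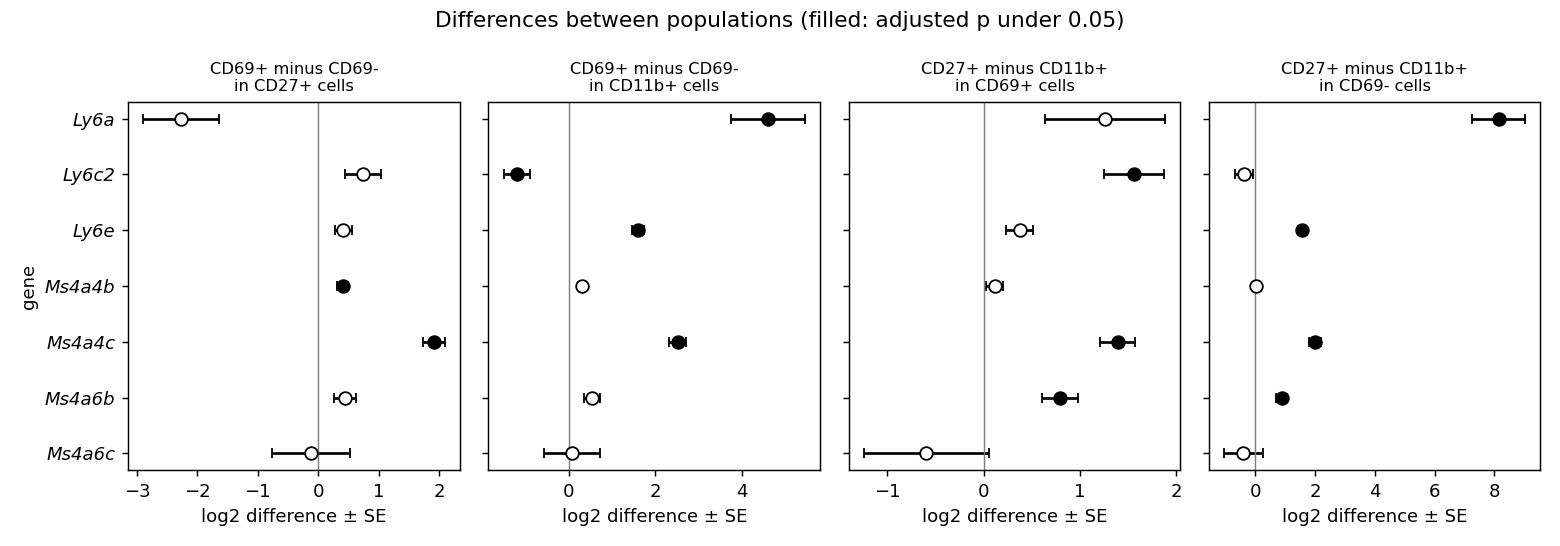
Log2 differences ± SE of the 7 genes tested, from the edgeR fit to 24 libraries (6 per population), with filled points for adjusted p under 0.05. Ms4a4c is filled and right of 0 in all 4 panels, from 1.39 to 2.52, and Ms4a6c is open in each; the axes differ between panels.

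Among the Ly6 genes, Ly6e encodes a broadly expressed protein known for restricting the entry of some viruses. It had a lowest, median and highest value of 3059, 3330 and 3985 CPM in CD27+CD69+ libraries and 1891, 2512 and 3263 in CD27+CD69- libraries. In CD11b+CD69+ libraries these were 2434, 2595 and 2945 CPM, and in CD11b+CD69- libraries 501, 939 and 1057. The CD11b+CD69- libraries thus all lay below all others, and CD27+CD69- overlapped both CD27+CD69+ and CD11b+CD69+. The CD11b+ means were 2646 ± 203 CPM with CD69 and 869 ± 215 CPM without it (SD, n = 6 each), 3.04-fold higher in CD69+ cells (log2 1.61, SE 0.14; edgeR, adjusted p = 5.59e-08). In CD27+ cells the difference was 0.42 (SE 0.14) and did not pass (edgeR, adjusted p = 0.152), but passed with limma-voom (0.41; adjusted p = 0.0467; range over its alternatives 0.0467 to 0.999). The difference between these differences passed, at -1.19 (SE 0.20; edgeR, adjusted p = 0.00271), and was lost with the summed fibroblast markers as a covariate (-1.08; adjusted p = 0.869; range 5.08e-07 to 0.869). The gene was also 2.96-fold higher in CD27+CD69- than in CD11b+CD69- cells (log2 1.57, SE 0.14; edgeR, adjusted p = 2.80e-08). That call was lost with the same covariate (1.43; edgeR, adjusted p = 0.0675; range 4.76e-28 to 0.0675). Ly6e was 3.95-fold higher in CD27+CD69+ than in CD11b+CD69- cells (log2 1.98; edgeR, adjusted p = 3.09e-10). Next in order of level, every CD27+CD69+ library lay above every CD11b+CD69+ library, a difference of 0.38 (SE 0.14) that did not pass in the fit of all populations (edgeR, adjusted p = 0.220) and passed when only these 2 were fitted (SE 0.08; adjusted p = 0.00820; range over its alternatives 0.00820 to 0.421). Between CD11b+CD69+ and CD27+CD69- cells the libraries overlapped and the test did not pass (edgeR, adjusted p = 0.952). B cell markers moved with Ly6e, and their part in its difference was not tested. They summed to 496 to 649 CPM in CD27+CD69+, 295 to 652 in CD27+CD69-, 309 to 461 in CD11b+CD69+ and 61.6 to 267 CPM in CD11b+CD69- libraries. Most of that sum was Ighm, at 537, 409, 382 and 178 CPM on average in the same order, while Pax5 was at 0 in all 4 populations.

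Ly6a encodes Sca-1, an interferon-inducible antigen of haematopoietic progenitors and activated lymphocytes that stromal cells such as fibroblasts and endothelial cells also carry. It had 128, 219, 274, 134, 204 and 60.7 CPM in replicates 1 to 6 of CD27+CD69+ and 399, 1518, 1518, 566, 75.3 and 834 CPM in those of CD27+CD69-. CD11b+CD69+ libraries had 109, 38.8, 146, 86.4, 14.2 and 31.9 CPM, and CD11b+CD69- libraries had 1.37, 6.59, 0.445, 0, 0 and 8.61 CPM. Every CD11b+CD69- library lay below every other library, and the CD27+CD69- libraries spread the widest. Ly6a was higher in CD69+ than in CD69- CD11b+ cells by 4.61 on the log2 scale (SE 0.86; edgeR, adjusted p = 0.00276), in 6 of 6 libraries. In CD27+ cells the CD69 difference was -2.27 (SE 0.63) and missed the threshold (edgeR, adjusted p = 0.0665), and without replicate 5 of CD27+CD69- it was -2.51 and passed (0.0108; range over all alternatives 0.0108 to 0.999). The CD69 difference in CD27+ cells minus that in CD11b+ cells was -6.88 (SE 1.07; edgeR, adjusted p = 0.00271). CD27+CD69- cells exceeded CD11b+CD69- cells by 8.14 (SE 0.90; edgeR, adjusted p = 1.46e-06), and CD27+CD69+ cells exceeded them by 5.87 (SE 0.86; edgeR, adjusted p = 5.08e-05). CD11b+CD69+ cells were below CD27+CD69- cells (log2 -3.52, SE 0.67; edgeR, adjusted p = 0.00166). With limma-voom, which gave SEs of 3.72 to 3.80 for the comparisons with CD11b+CD69- cells, none of these calls on CD11b+CD69- cells was made, and the CD69 difference in CD11b+ cells had an adjusted p of 0.517 (range over its alternatives 1.12e-06 to 0.517).

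Fibroblast markers moved with Ly6a across the CD27+CD69- libraries, the libraries with 11989 and 8395 CPM of them having the 2 highest Ly6a values and the library with 258 CPM the lowest. With the 3 libraries over 5000 CPM left out, an alternative chosen after seeing the data, Ly6a remained higher in CD27+CD69- than in CD11b+CD69- cells (log2 6.90, SE 0.82; edgeR, adjusted p = 9.44e-06; range over all alternatives 2.95e-22 to 0.249). The difference from CD11b+CD69+ cells no longer passed (-2.28; adjusted p = 0.0573; range 0.000139 to 0.999), the CD69 difference in CD27+ cells was -1.02 (adjusted p = 0.727), and the difference between CD69 differences was -5.64 (adjusted p = 0.0193; range 4.93e-07 to 1). A fit with the fibroblast sum as a covariate, also chosen after seeing the data, had Ly6a SEs of 2.24 to 2.50 for the comparisons with CD27+CD69- cells, and the sum and that population nearly coincide. It called 1 member in these comparisons, Ms4a4c between CD27+CD69- and CD11b+CD69- cells (2.37; adjusted p = 0.0111; range 1.32e-20 to 0.0111). Over all genes it called 44 there, against 1304 in the main fit. It called 0 of all genes between CD69+ and CD69- CD27+ cells and 0 between CD11b+CD69+ and CD27+CD69- cells. A call lost with this covariate is therefore not particular to a member. In replicate 5 of CD27+CD69-, at 0 in 7 of the 8 markers, Ly6a stood at 75.3 CPM, above every CD11b+CD69- library and within the range of the CD11b+CD69+ libraries. That library had the highest endothelial marker sum, 264 CPM, against 42.1 to 84.2 CPM in the other CD27+CD69- libraries.

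**Figure D3:**
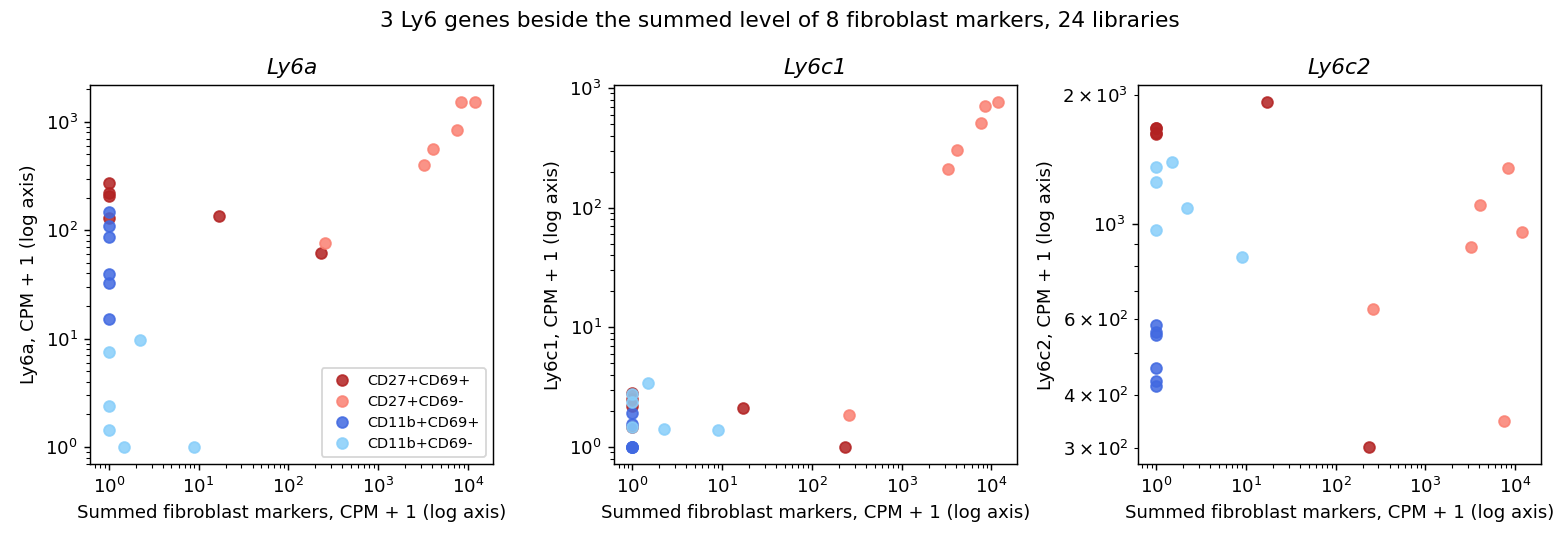
Ly6a, Ly6c1 and Ly6c2 in CPM plus 1 against the summed CPM plus 1 of 8 fibroblast markers, both on log axes, with 1 point per library coloured by population. The 5 CD27+CD69- libraries at 3250 CPM of fibroblast markers or more hold the 5 Ly6c1 values from 209 to 761 CPM, and no such order is seen for Ly6c2.

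Ly6c1 and Ly6c2 encode the antigens read as Ly6C, used to mark monocytes, memory T cells and mature NK cells, and their transcripts were 84.1% identical over 878 aligned columns. Ly6c1 had 4690 counts in all, 4659 of them in CD27+CD69- libraries. Its level there was 209, 761, 706, 305, 0.856 and 509 CPM in replicates 1 to 6, and no library of another population exceeded 2.46 CPM. The exception is replicate 5, with 2 counts, so that Ly6c1 did not enter the test. Fibroblast markers were at 3250, 11989, 8395, 4107, 258 and 7557 CPM in the same 6 libraries, also lowest in replicate 5, and their part in the Ly6c1 level was not tested. Endothelial markers, from cells that also carry Ly6C, summed to 45.8, 84.2, 63.3, 67.0, 264 and 42.1 CPM in these libraries. Their sum was 37.3 to 68.1 CPM in CD11b+CD69- libraries, where all but 1 of the 6 markers were at 0. Among the CD27+CD69- libraries, only Cldn5 was without any count. Cdh5, Kdr and Emcn had counts in this population alone. Whether endothelial RNA had a part in the Ly6c1 level was not tested. In a fit of all genes with counts, Ly6c1 was lower in CD69+ than in CD69- CD27+ cells (log2 -8.60, SE 0.98; edgeR, adjusted p = 3.11e-05) and higher in CD27+CD69- than in CD11b+CD69- cells (log2 8.48, SE 0.97; edgeR, adjusted p = 7.04e-06). The size of both rests on 13 and 15 counts in the lower population.

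Ly6c2 was high in every population. The CD27+CD69+ libraries had 1631, 1678, 1680, 1926, 1621 and 301 CPM in replicates 1 to 6, and the CD27+CD69- libraries 886, 960.3, 1355, 1109, 633 and 346 CPM. The lowest, median and highest values were 417, 505 and 581 CPM in CD11b+CD69+ libraries and 838, 1172 and 1399 CPM in CD11b+CD69- libraries. Replicate 6 lay far below the others in CD27+CD69+ and was the lowest in CD27+CD69-, while the CD11b+ populations did not overlap. In CD11b+ cells Ly6c2 averaged 499 ± 71.6 CPM with CD69 and 1152 ± 224 CPM without it (SD, n = 6 each), and was lower in CD69+ cells (log2 -1.21, SE 0.30; edgeR, adjusted p = 0.0298). That call lay near the threshold and depended on the setting. With 1 library left out, the log2 difference stayed between -1.29 and -1.14. The call was lost in 10 of 12 such fits (edgeR, adjusted p from 0.0352 to 0.0758), in which 210 to 257 of all genes passed, against 289. It was also lost with limma-voom (0.0992) and with no filter (0.114), within a range of 4.62e-05 to 0.114 over all alternatives. In CD27+ cells the CD69 difference was 0.74 (SE 0.30) and did not pass (edgeR, adjusted p = 0.297), but it passed at 0.95 without replicate 6 of CD27+CD69+ (adjusted p = 0.00689; range over all alternatives 0.00689 to 0.999). The difference between CD69 differences was 1.95 (SE 0.43; edgeR, adjusted p = 0.0333), and 14 of 24 fits without 1 library lost it (0.000135 to 0.0672, and up to 1 over all alternatives). In CD69+ cells Ly6c2 was 2.95-fold higher in CD27+ than in CD11b+ cells (log2 1.56, SE 0.31; edgeR, adjusted p = 0.00453), a call that limma-voom did not make (1.37, 0.0692; range over its alternatives 6.73e-06 to 0.0692).

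Of the 7 members tested, 3 thus had a CD69 difference that itself differed between CD27+ and CD11b+ cells, against 0.579% of all genes (0.237% higher and 0.342% lower). The CD69 difference of Ly6a and Ly6e was higher in CD11b+ cells, and that of Ly6c2 was higher in CD27+ cells. All 3 rest in part on CD27+CD69- cells, the population with fibroblast RNA, and without its 3 libraries richest in it the call on Ly6c2 was lost (1.95, adjusted p = 0.0626). With the fibroblast covariate all 3 calls were lost, at adjusted p-values of 1 for Ly6a (-6.90) and Ly6c2 (0.67) and 0.869 for Ly6e. Over all genes the covariate fit made 1 such call, against 61 in the main fit. With limma-voom the calls on Ly6a (adjusted p = 0.499) and Ly6c2 (0.138) were lost and that on Ly6e was made. For Ms4a4c the test did not pass (-0.61, SE 0.26; edgeR, adjusted p = 0.418), nor did it for Ms4a4b (0.10, SE 0.13), Ms4a6b (-0.09, SE 0.26) or Ms4a6c (-0.19, SE 0.91).

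**Figure D4:**
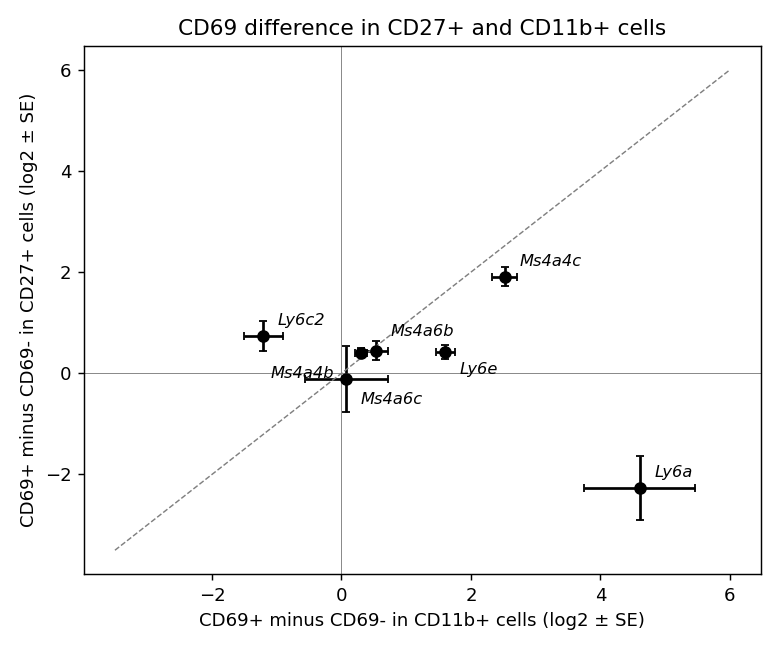
CD69+ minus CD69- difference (log2 ± SE, edgeR) in CD11b+ cells on the horizontal axis and in CD27+ cells on the vertical axis for the 7 genes tested, with equal differences on the dashed line. Ly6a lies at 4.61 and -2.27, Ly6c2 at -1.21 and 0.74 and Ms4a4c at 2.52 and 1.91.

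Ly6g5b, a gene of the class III region of the major histocompatibility complex, had 77 counts in 5 of the 24 libraries. They fell in 2 CD27+CD69+ libraries (67 counts, at most 16.1 CPM) and 3 CD27+CD69- libraries (10 counts). All 12 CD11b+ libraries were at 0, which the floor of 3 counts limits. In the fit of all genes with counts its lowest adjusted p was 0.0595 (edgeR), for CD27+CD69+ against CD11b+CD69- cells.

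Ms4a4c passed the threshold in 5 of the 6 pairs of populations. Its lowest, median and highest values were 267, 318 and 467 CPM in CD27+CD69+ libraries and 51.1, 91.5 and 123 CPM in CD27+CD69- libraries. They were 95.0, 127 and 172 CPM in CD11b+CD69+ libraries and 16.4, 22.7 and 25.6 CPM in CD11b+CD69- libraries. Every CD27+CD69+ library lay above all others and every CD11b+CD69- library below all others, while CD11b+CD69+ and CD27+CD69- overlapped. Ms4a4c was 5.75-fold higher in CD69+ than in CD69- CD11b+ cells (log2 2.52, SE 0.20; edgeR, adjusted p = 5.41e-09). In CD27+ cells it averaged 339 ± 69.8 CPM with CD69 and 89.5 ± 23.7 CPM without it (SD, n = 6 each), a 3.77-fold difference (log2 1.91, SE 0.18; edgeR, adjusted p = 7.31e-07). With the fibroblast covariate that call was lost (1.58; edgeR, adjusted p = 0.411; range over all alternatives 2.58e-19 to 0.411). CD27+ exceeded CD11b+ cells by 2.00 without CD69 (SE 0.19; edgeR, adjusted p = 5.31e-08) and by 1.39 with it (SE 0.18; edgeR, adjusted p = 1.66e-05). CD27+CD69+ exceeded CD11b+CD69- cells 15.1-fold (log2 3.92, SE 0.20; edgeR, adjusted p = 1.75e-13). Between CD11b+CD69+ and CD27+CD69- cells the difference did not pass (0.52, SE 0.18; edgeR, adjusted p = 0.0976). It passed without replicate 1 of CD11b+CD69+ (0.60; edgeR, adjusted p = 0.0497) and without replicate 3 of CD27+CD69- (0.63; edgeR, adjusted p = 0.0401; range over all alternatives 0.0401 to 0.999).

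Ms4a4b, next to Ms4a4c and 82.2% identical to it over 1830 aligned transcript columns, is known in mice as a modulator of T cell proliferation. It had the narrowest range of the members tested. Its lowest, median and highest values were 3975, 4069 and 4433 CPM in CD27+CD69+ libraries and 2166, 3206 and 3629 CPM in CD27+CD69- libraries, which did not overlap. They were 3159, 3890 and 4162 CPM in CD11b+CD69+ libraries and 2766, 3170 and 3353 CPM in CD11b+CD69- libraries, which overlapped. The CD69 difference passed in CD27+ cells (0.41, SE 0.09; edgeR, adjusted p = 0.0142), although not when only these 2 populations were fitted (0.39, adjusted p = 0.0922; range over all alternatives 0.00189 to 0.999). In CD11b+ cells it was 0.31 (SE 0.09) and did not pass (edgeR, adjusted p = 0.0702), but passed with DESeq2 (0.0170) and limma-voom (0.0220), within a range of 0.0170 to 0.170 over its alternatives. CD27+CD69+ exceeded CD11b+CD69- cells 1.34-fold (log2 0.42, SE 0.09; edgeR, adjusted p = 0.00247).

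Ms4a6b was higher in CD27+ than in CD11b+ cells, with and without CD69. Its lowest, median and highest values were 479.6, 651 and 705 CPM in CD27+CD69+ libraries and 204, 380.1 and 457 CPM in CD11b+CD69+ libraries. In CD69- cells they were 310.1, 445 and 631 CPM in CD27+ libraries and 137, 242 and 348 CPM in CD11b+ libraries. The CD69+ populations did not overlap, and the CD69- populations did. CD27+ exceeded CD11b+ cells by 0.79 in CD69+ cells (SE 0.19; edgeR, adjusted p = 0.0189) and by 0.88 in CD69- cells (SE 0.19; edgeR, adjusted p = 0.00186). The first of these calls was lost without replicate 2 of CD11b+CD69+ (0.67; adjusted p = 0.0542; range over its alternatives 0.00167 to 0.0542), and the second with the fibroblast covariate (0.85; adjusted p = 0.821; range 3.41e-05 to 0.821). The CD69 differences were 0.45 in CD27+ cells (SE 0.19; edgeR, adjusted p = 0.310) and 0.53 in CD11b+ cells (SE 0.19; edgeR, adjusted p = 0.141), and neither passed. CD27+CD69+ exceeded CD11b+CD69- cells 2.50-fold (log2 1.32; edgeR, adjusted p = 1.43e-05).

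Ms4a6c had 337 counts in all and means of 5.20 ± 2.06 CPM in CD27+CD69+, 5.62 ± 2.78 in CD27+CD69-, 7.92 ± 5.17 in CD11b+CD69+ and 7.49 ± 3.72 in CD11b+CD69- libraries (SD, n = 6 each). The populations overlapped throughout and no comparison passed. In the 53.1% of its exon bases that overlap BE692007, which had 439 counts, reads of the 2 genes cannot be told apart.

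Other Ly6 family genes were rare, with 1113 counts in all. Other Ms4a family genes had 6225 counts, 2496 of them from Tmem176b. Of 31 further Ly6 family genes in the table, 15 had no counts and only Plaur, the urokinase receptor, was tested. It passed in no comparison with edgeR, DESeq2 or limma-voom, nor at an unadjusted p of 0.05. Of 16 further Ms4a family genes, 5 had no counts and 5 were tested, 3 of which, with Ms4a4d, were higher and 1 lower in CD27+CD69- than in CD11b+CD69- cells, against 7.46% and 4.92% of all genes. With limma-voom 2 were higher and 0 lower there. In the other comparisons edgeR called 3 higher in CD27+CD69+ than in CD11b+CD69- cells (6.39% of all genes; 1 with DESeq2, 0 with limma-voom), 1 higher in CD27+ than in CD11b+ cells with CD69 (0.987%; 0 with limma-voom) and 3 lower in CD11b+CD69+ than in CD27+CD69- cells (3.78%; 2 with limma-voom). Tmem176b, a channel-like relative of the family, averaged 162 ± 100 CPM in CD27+CD69- and 8.92 ± 9.28 CPM in CD11b+CD69- libraries (SD, n = 6 each; log2 4.18, SE 0.71; edgeR, adjusted p = 0.000172). Tmem176a, its neighbour, was higher too (log2 4.86, SE 0.98; edgeR, adjusted p = 0.00107), and Ms4a15 was lower (-2.75, SE 0.88; edgeR, adjusted p = 0.0371). Ms4a4d had 15.3, 78.3, 80.3, 67.0, 0 and 76.7 CPM in replicates 1 to 6 of CD27+CD69- and 0 counts in all 12 CD11b+ libraries. The library without it is the one at 0 for 7 of 8 fibroblast markers. Ms4a1, which encodes CD20, had 1 count in all 24 libraries.

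Type I interferon response genes, a list that includes none of the members, were described beside them. Of 29 tested, 15 were higher in CD69+ than in CD69- CD11b+ cells, against 1.64% of all genes, with a median log2 difference of 1.98, also with genes at 0 in 1 population held at 3 counts. Ifi44 had 1002 counts in CD11b+CD69+ and 0 in CD11b+CD69- libraries, and Bst2 (1.69, SE 0.20), Isg20 (3.04, SE 0.40) and Oas1a (1.79, SE 0.25) passed as well. In CD27+ cells 1 of 29 passed between CD69+ and CD69- cells, Trim30a, higher in CD69+ cells as were 0.55% of all genes, with a median of 0.51. Between CD27+ and CD11b+ cells, 11 were higher in CD69- cells (7.46% of all genes; median 1.13) and 0 in CD69+ cells (0.987% of all genes; median -0.02; edgeR, DESeq2 and limma-voom each 0, and 1 at an unadjusted p of 0.05), where Ms4a4c, Ms4a6b and Ly6c2 passed. Of the 29, 18 were higher in CD27+CD69+ than in CD11b+CD69- cells (6.39% of all genes), with a median of 1.70, where 5 of the 7 members tested were also higher. In CD11b+CD69+ against CD27+CD69- cells 5 were higher (2.41%), with a median of 0.34. The list's CD69 difference was lower in CD27+ than in CD11b+ cells for 5 genes (0.342% of all genes), Bst2 (-1.40, SE 0.28) and Oasl2 (-3.29, SE 0.74) among them. Genes for GPI anchor synthesis, which Ly6 proteins need, had 24 members tested. Of these 24, 1 was higher in CD69+ than in CD69- CD11b+ cells (1.64% of all genes). It was Gpaa1, a subunit of the transamidase that attaches the anchor (0.86, SE 0.16; edgeR, adjusted p = 0.00142). In CD27+CD69- against CD11b+CD69- cells 1 was higher (7.46% of all genes), Pigk, the catalytic subunit (0.80, SE 0.24; edgeR, adjusted p = 0.0287). Across the diagonals, 2 were higher in CD27+CD69+ than in CD11b+CD69- cells (6.39% of all genes). In CD11b+CD69+ against CD27+CD69- cells 1 was higher (2.41%). Between CD69+ and CD69- CD27+ cells, and between CD27+ and CD11b+ cells with CD69, 0 passed with edgeR, DESeq2 or limma-voom, and 1 in each at an unadjusted p of 0.05 with edgeR. That unadjusted threshold was met by 1154 and 1205 of the 10536 genes tested.

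The genes whose profile over the 24 libraries lay nearest to each member were found by the root mean square (RMS) difference of centred log2(CPM + 1), among 7951 genes with a mean of at least 10 CPM (7952 for Ms4a6c). Ms4a4b was nearest to Gimap4 (0.12), Trbc1 and Fam49b, against a spread of its own of 0.24. Ly6e was nearest to Ighm (0.34), Lgals3bp and Cd7, against 0.81. Ms4a4c was nearest to Cd160 (0.72), Pilrb1 and the interferon-response gene Rtp4, against 1.41. Ms4a6b was nearest to Mgst2 (0.31), Ctss and Nsmce1, against 0.60, and Ly6c2 to Acp5 (0.54), Rhoh and Armc7, against 0.79. Ly6a was nearest to Gpr183 (1.68), Tgtp1 and Prnp, against 3.12. For Ms4a6c the nearest, Snapc2, lay at 0.49 against a spread of 0.74. These distances are descriptions over libraries that share 4 populations.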

How the data were processed

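RNA was read from SMART-Seq v4 and Nextera XT libraries, without strand information or molecular identifiers, per the labels' protocols. The authors deposited raw counts per gene, on GRCm38, with HTSeq and Picard per the submitters' processing notes. The aligner, annotation release and strand setting were not given in the sources used here. From the counts, 6 repeated rows were removed (53471 to 53465 genes). Genes with about 10 counts or more in a population's number of libraries were kept (edgeR filterByExpr, 10536 genes), and TMM factors ran from 0.958 to 1.06.

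One edgeR 4.0.16 quasi-likelihood fit (R 4.3.3) gave 4 population means to 24 libraries. Adjustment was by Benjamini-Hochberg over all tested genes, with a threshold of 0.05, and an SE is the log2 difference over the root of F. The script was tested on simulated data. Floors cover counting error only. Alternatives were DESeq2 1.42.0, limma-voom 3.58.1, other size factors, no filter, a replicate block, only the populations compared, each library left out, and 2 on fibroblast RNA chosen after seeing the data. The members, gene lists and rules were chosen with earlier results of these data known. All 9 members are named; of other lists, at most 4 genes with the smallest p per comparison, and of likeness the nearest 3 genes. Ms4a1 was named after its values were seen. Promoters come from RefSeq (GRCm38.p6), and loci and transcripts from GENCODE M21.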

Additional observations from a re-analysis of the deposited data

Results flagged for a closer look

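Ly6c2 in CD27+CD69+ libraries had 1 library far from the others: replicate 6 stood at 301 CPM and the other 5 between 1621 and 1926 CPM, a gap of 0.812 of the whole range. Ms4a4b in CD27+CD69- libraries had another, replicate 6 at 2166 CPM against 3144 to 3629 CPM, a gap of 0.668 of the range. That second library also had the lowest total, 1213914 counts, and marker sums of 5826 CPM for melanoma and 7557 CPM for fibroblasts, whose part in the value was not tested. Of 36 sets of 6 values examined, chance passes about 1 in 20.

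The difference between CD69+ and CD69- cells itself differed between CD27+ and CD11b+ cells for 3 genes, by the interaction test in edgeR. It was lower in CD27+ cells by a log2 value of -6.88 for Ly6a and -1.19 for Ly6e, and higher by 1.95 for Ly6c2.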

How the results depend on the processing

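Of the single-gene values under alternatives, 951 kept direction and side of the threshold, 46 lost a call, 16 gained one and 23 turned sign. The number of members called between CD11b+CD69+ and CD27+CD69- cells, 1 as reported, was 2 with DESeq2, limma-voom and no filter, 0 under both fibroblast alternatives, and 1 to 3 with a library left out. In CD27+ cells with and without CD69 it was 2 as reported, 1 with only these populations fitted, 0 with the fibroblast covariate and 2 to 4 with a library left out. For the difference between CD69 differences it was 3 as reported, 1 with limma-voom and 0 with the covariate, and between CD27+ and CD11b+ cells without CD69 it was 4 as reported and 1 with the covariate. The cause was not tested, except that the covariate nearly coincides with CD27+CD69- cells.

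Values that turned sign were mostly near 0. The CD69 difference of Ms4a6c in CD11b+ cells was -0.035 with limma-voom, -0.034 with the replicate block and -0.28 to 0.30 with a library left out. In CD27+ cells it was 0.20 without the 3 fibroblast-rich libraries and -0.33 to 0.12 with a library left out, and its difference between backgrounds was 0.12 and -0.41 to 0.17. With a library left out, Ms4a4b between CD27+ and CD11b+ cells without CD69 was -0.037 to 0.097, Ly6e between CD11b+CD69+ and CD27+CD69- cells -0.034 to 0.12, and the Ms4a6b difference between backgrounds -0.21 to 0.039. With the covariate, Ly6c2 was -0.63 between CD69+ and CD69- CD27+ cells and 1.06 between CD27+ and CD11b+ cells without CD69.

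Counts over all genes moved by over 1.5 times in these cases. For CD69 in CD11b+ cells, 289 became 483 with DESeq2 and 188 with no filter. For CD69 in CD27+ cells, 195 became 293 with limma-voom, 405 with no filter, 0 with the covariate, 66 without the 3 libraries and 121 to 393 with a library left out. For CD27 in CD69+ cells 200 became 316 with DESeq2, and in CD69- cells 1304 became 44 with the covariate. Between CD11b+CD69+ and CD27+CD69- cells 652 became 1105 with no filter, 0 with the covariate and 403 without the 3 libraries, and for the difference of differences 61 became 169 with DESeq2, 1 with the covariate, 19 without the 3 libraries and 37 to 107 with a library left out. Same-numbered libraries of 2 populations mostly deviated together little: over 36 pairs r had a median of 0.014 and ran from -0.05 to 0.26. A library correlated best with its own number, among the 6 libraries of the other population, in 11. The 1 pair over 0.1 was replicate 6 of CD27+CD69- and of CD27+CD69+, which also had the lowest Ly6c2 value of each. The replicate block ended no call on a member. Depth limits Ly6g5b, and Ly6c1 outside CD27+CD69- cells, and Ms4a6c had 2 to 30 counts per library.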
